A study of Homo sapiens with 12 samples.

Results

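The mRNAs of the chaperonin CCT, also called TRiC, were followed in total and polysome-associated RNA of a human cell line with and without depletion of PRRC2B. The 8 subunit genes TCP1, CCT2, CCT3, CCT4, CCT5, CCT6A, CCT7 and CCT8 were taken by symbol. They are 8 of 59385 gene names in the count table, and all 8 had enough counts to be among the 18166 genes tested. The question was whether the mRNAs of 1 stoichiometric complex are carried on polysomes to the same degree, and whether they stay together when PRRC2B is depleted.

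CCT is a barrel of a pair of stacked rings, each built from a single copy of every subunit in a fixed order, and it closes over newly made proteins and releases them folded after ATP hydrolysis. Actin and tubulin are its best-known clients, and prefoldin hands both of them to the chaperonin. TCP1, CCT2, CCT4 and CCT5 form the side of the ring that binds ATP tightly, and CCT3, CCT6A, CCT7 and CCT8 form the other side. An mRNA in the polysome fraction carries several ribosomes at the same time, so the ratio of polysome to total RNA is read as a measure of translational efficiency (TE).

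The cells were HEK293T, a line from human embryonic kidney. A non-targeting shRNA (shCtrl) or an shRNA against PRRC2B (shPRRC2B), an RNA-binding protein, was expressed from a Dox-inducible construct in stable lines, and cells of both lines were taken 36 h after induction with Dox. Each line was a single clone selected with puromycin, so the effect of the shRNA and a difference between clones cannot be told apart. Total RNA and RNA of the pooled polysome fractions were sequenced in 3 biological replicates per line and fraction, which gave 4 groups and 12 libraries of 9855734 to 20837542 counted read pairs. PRRC2B itself lay at 258 to 313 CPM (counts divided by the library size and scaled to the same total) in shCtrl total RNA and at 97.9 to 103 CPM in shPRRC2B total RNA, with 12.9 to 21.1 and 5.14 to 9.03 CPM on polysomes. In total RNA it fell from 281 ± 28.7 to 100.3 ± 2.32 CPM (SD, n = 3; log2 change -1.49, edgeR adjusted p = 4.25e-06). Of the markers reported here, VIM, LIN28B, NEFM, NEFL and PAX2 were detected in every library, and PTPRC, CD3E, PECAM1 and ALB lay below 0.5 CPM in all of them, while DCN (up to 1.16 CPM as a group mean) and COL1A1 (3.72 to 31.8 CPM) were detected. The polysome libraries of replicate 1 stood apart in both lines. Their counts differed from those of replicates 2 and 3 by a chi-square of 54.1 and 75.7 per degree of freedom in shCtrl, against 22.4 between replicates 2 and 3, and by 38.04 and 37.7 against 13.9 in shPRRC2B. The results that rest on these libraries are given with and without them.

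The genes lie on 7 chromosomes, with CCT4 and CCT7 both on chromosome 2, and their canonical transcripts in GENCODE 44 (GRCh38) are 1847 nt (CCT7) to 3293 nt (CCT5) long with coding regions of 531 (CCT6A) to 556 codons (TCP1). The study listed PRRC2B binding sites from PAR-CLIP, a method that crosslinks a protein to the RNA it touches. Its lists held sites in CCT2, CCT3 and CCT5 and none in the other subunits. The sites are intervals of 100 nt, found with FLAG-tagged full-length PRRC2B for all of these mRNAs and also with P2, its RNA-binding fragment, for CCT2 and CCT3. The middle of each site, or of the overlap of both sites, is shown because these mRNAs carry sites of the depleted protein, and the crosslinked base itself was not located here. The CCT2 window is chr12:69589527-69589556 (GRCh38, plus strand, exon 7, codons 163 to 173), the CCT3 window is chr1:156312166-156312195 (minus strand, exon 11, codons 334 to 344), and the CCT5 window is chr5:10264764-10264793 (plus strand, exon 11), with 17 coding bases from codon 536 to the last codon, 541, before the stop codon and the start of the 3′ UTR. Capitals mark the longest run of pyrimidines only (C and T, in CCT2) or of purines only (G and A, in CCT3 and CCT5, where CCT5 has another run of the same length and the first is marked), read 5′ to 3′ on the mRNA strand from the GRCh38 genome.
CCT2: gggcacaacattatcctcaaaaCTTCTTac
CCT3: gaccagaggaactGAGAGAAGAtgatgttg
CCT5: ctGGAGAAtctgaagaatgaagacattgag
G and A made up 22 of 30 bases in the CCT3 window and 21 of 30 in the CCT5 window, and C and T made up 17 of 30 in CCT2. Over the whole sites of 100 nt, C and T made up 50% (P2) and 52% (full-length) in CCT2. G and A made up 62% (P2) and 67% (full-length) in CCT3 and 60% (full-length) in CCT5. The runs in capitals are 9 bases long in CCT3 and 6 bases long in CCT2 and CCT5. CCT2 and CCT3, with sites of the full-length protein and of P2, were called lower in TE in shPRRC2B, and CCT5, with a site of the full-length protein, did not pass the test. CCT6A and CCT8, for which the study listed no site, were called lower too.

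All 8 mRNAs were abundant in every library, with group means between 143 CPM (CCT2, shPRRC2B polysomes) and 912 CPM (CCT3, shCtrl polysomes) after TMM scaling of the library sizes. TCP1, the subunit that gave the complex its first name, was measured at 309, 306 and 308 CPM in shCtrl total RNA and at 450, 464 and 421 CPM in shPRRC2B total RNA. On polysomes it reached 386, 370 and 401 CPM in shCtrl and 658, 726 and 670 CPM in shPRRC2B. TCP1 was thus higher in every shPRRC2B library than in any shCtrl library of the same fraction.

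CCT4, a contact site for actin, was measured at 254, 284 and 262 CPM in shCtrl total RNA and at 318, 314 and 280 CPM in shPRRC2B total RNA. Its polysome levels were 409, 534 and 558 CPM in shCtrl and 584, 570 and 624 CPM in shPRRC2B. The total RNA of the lines overlapped for CCT4, and on polysomes the shPRRC2B libraries lay above all shCtrl libraries.

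CCT2, which touches its own copy across the rings, stood at 185, 187 and 187 CPM in shCtrl total RNA and at 282, 293 and 264 CPM in shPRRC2B total RNA. Its polysome levels were 132, 166 and 183 CPM in shCtrl and 168, 134 and 127 CPM in shPRRC2B. The higher total RNA of CCT2 in shPRRC2B was therefore not met by a higher level on polysomes, where the libraries of the lines overlapped.

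CCT5, the longest of the 8 transcripts, had 277, 276 and 254 CPM in shCtrl total RNA and 351, 367 and 353.7 CPM in shPRRC2B total RNA. On polysomes it had 179, 275 and 265 CPM in shCtrl and 243, 241 and 236 CPM in shPRRC2B. The shCtrl polysome library of replicate 1 was low for this subunit, and the shPRRC2B libraries fell between it and the other shCtrl libraries.

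On the other side of the ring, CCT3 was the most abundant subunit in shCtrl, with 509, 496 and 476 CPM in total RNA and 717, 926 and 1092 CPM on polysomes. In shPRRC2B it had 595, 594 and 563 CPM in total RNA and 431, 742 and 690 CPM on polysomes. The shPRRC2B polysome library of replicate 1 lay below every total RNA library of CCT3, and replicate 2, at 742 CPM, lay above the lowest shCtrl polysome library.

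CCT8 varied little in total RNA, with 233, 231 and 231 CPM in shCtrl and 264, 259 and 271 CPM in shPRRC2B. On polysomes it had 310, 530 and 584 CPM in shCtrl and 237, 305 and 305 CPM in shPRRC2B. All shPRRC2B polysome libraries were below all shCtrl polysome libraries, although the shCtrl library of replicate 1 came close to them, at 310 against 305 CPM.

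CCT6A, the second subunit that meets its own copy across the rings, had 243, 242 and 253 CPM in shCtrl total RNA and 257, 264 and 253 CPM in shPRRC2B total RNA. On polysomes it had 277, 318 and 351 CPM in shCtrl and 174, 207 and 189 CPM in shPRRC2B, with no overlap. CCT7 had 397, 416 and 379 CPM in shCtrl total RNA and 521, 510 and 496 CPM in shPRRC2B total RNA, again with no overlap. Its polysome levels of 356, 473 and 435 CPM in shCtrl and 388, 382 and 376 CPM in shPRRC2B overlapped.

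**Figure D1:**
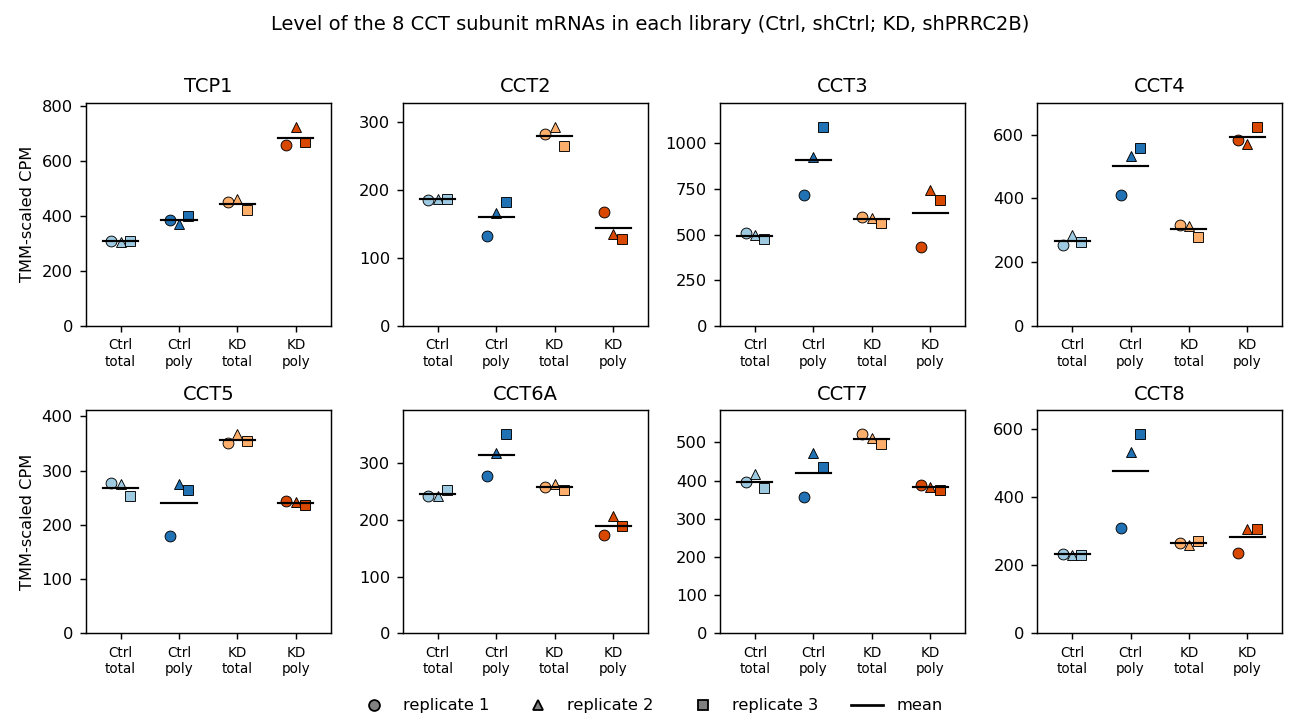
TMM-scaled CPM (linear axis from 0) of each CCT subunit in the 12 libraries, with the replicate given by the symbol and the group mean by the line. The shCtrl polysome library of replicate 1 (blue circle) was the lowest of its group for all subunits but TCP1, for example 310 against 530 and 584 CPM for CCT8.

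The first comparison asked how evenly the subunits were loaded in control cells. Loading was the log2 ratio of polysome to total RNA, tested by edgeR's quasi-likelihood test, and a gene was called at a Benjamini-Hochberg adjusted p under 0.05 and a log2 value beyond 0.5. The zero of this ratio is set by the scaling of the libraries, and scaling by total counts in place of TMM moved the median loading of all genes tested by -0.996 in shCtrl and -0.94 in shPRRC2B (log2). Each subunit was therefore also tested with the libraries scaled by the geometric mean of the 8 subunits, a scale on which 0 is the mean of the complex and the choice between TMM and total counts has no part. This mean includes the subunit tested, so the 8 values balance around 0, and subunits above it require others below it. Other genes are not bound in this way, so their shares called on this scale are no like reference for the 8.

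The subunits were not equally loaded in shCtrl. On the scale of the complex, CCT8 (log2 0.61 ± 0.15 SE, adjusted p = 0.00117) and CCT4 (0.51 ± 0.13, adjusted p = 0.00162) were called above the mean of the 8. CCT2 (-0.62 ± 0.14, adjusted p = 0.00101) and CCT5 (-0.57 ± 0.13, adjusted p = 0.000747) were called below it, 2 higher and 2 lower of 8, where 26.1% of all genes tested were called higher and 46.5% lower on the same scale. CCT3 (0.48, adjusted p = 0.0117) and CCT7 (-0.31, adjusted p = 0.0392) fell short of the fold threshold, and TCP1 (-0.05) and CCT6A (-0.03) lay near the mean. Without the shCtrl total library of replicate 1, CCT4 had 0.48 and was not called, and CCT3 was called, at 0.50, when that library or the shCtrl polysome library of replicate 1 (0.50) or 2 (0.51) was left out. The pair above the mean joined CCT4, of the ATP-tight side of the ring, with CCT8, of the other side, and the pair below it, CCT2 and CCT5, belongs to the ATP-tight side. The trend on transcript length was not removed on this scale, and the place of CCT5 depended on it on the TMM scale.

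The order was partly different in shPRRC2B. CCT4 (log2 1.05 ± 0.13 on the scale of the complex, adjusted p = 9.2e-07) and TCP1 (0.71 ± 0.14, adjusted p = 0.000222) were called above the mean of the 8, and CCT2 (-0.87 ± 0.14, adjusted p = 3.42e-05) below it, where 37.6% of all genes tested were called higher and 40.7% lower. CCT5 (-0.49, adjusted p = 0.0024), CCT6A (-0.36, adjusted p = 0.0145) and CCT7 (-0.33, adjusted p = 0.0283) fell short of the fold threshold, and CCT3 (0.16) and CCT8 (0.17) did not pass the test. CCT5 was called, at -0.51 and -0.54, when the shPRRC2B total or polysome library of replicate 1 was left out. CCT2 ranked last of the 8 in both lines and CCT5 next to last, while TCP1 went from rank 5 in shCtrl to rank 2 in shPRRC2B and CCT8 from rank 1 to rank 3. These ranks take no account of transcript length. With the trend on length removed (TMM scale), shCtrl loading was 0.20 for CCT5, the longest transcript, and -0.76 for CCT7.

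On the TMM scale of all genes, loading ran from -0.22 (CCT2) to 1.03 (CCT8) in shCtrl, with CCT3 (0.89), CCT4 (0.91) and CCT8 called higher (32.5% of all genes tested were called higher and 39.8% lower). In shPRRC2B it ran from -0.96 (CCT2) to 0.97 (CCT4), with CCT4 and TCP1 (0.62) called higher and CCT2 and CCT5 (-0.57) called lower (36.6% and 42.3% of all genes tested). The signs were not fixed by the data: scaling by total counts gave values below 0 for TCP1, CCT3, CCT4, CCT6A and CCT7 in shCtrl and for TCP1, CCT3 and CCT8 in shPRRC2B, each above 0 under TMM. The distance from the other genes also moved with the processing. The median of the 8 was 0.34 against -0.22 for all genes in shCtrl under TMM and -0.66 against -1.22 under total counts. In shPRRC2B the median of the 8 was -0.16 against -0.22 for all genes under TMM and -1.11 against -1.16 under total counts. With the trend on transcript length taken out of each library, the medians were 0.18 against -0.043 in shCtrl and -0.69 against -0.017 in shPRRC2B. In shPRRC2B the median of the 8 then lay below the median of all genes.

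**Figure D2:**
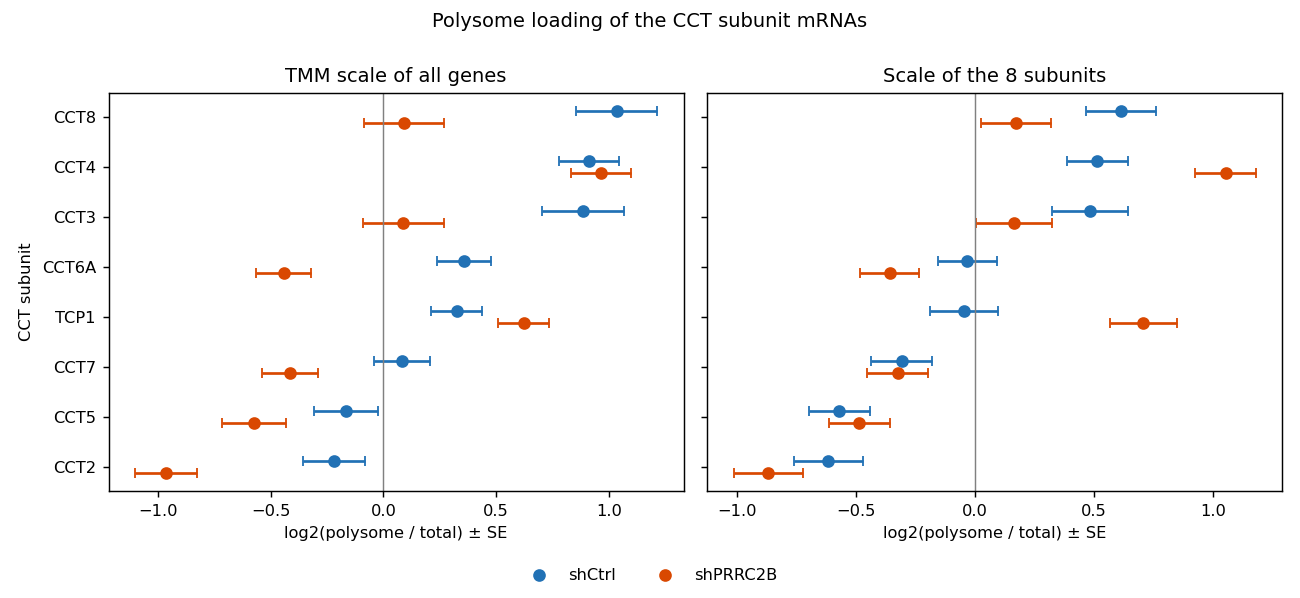
Polysome loading, log2(polysome/total) ± SE from the edgeR fit over 12 libraries, of each CCT subunit in shCtrl (blue) and shPRRC2B (orange), on the TMM scale of all genes (left, where the zero moves with the scaling) and on the scale of the 8 subunits (right). TCP1 moved from -0.05 to 0.71 and CCT4 from 0.51 to 1.05 on the right, while CCT2 was the lowest in both lines.

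The spread of loading among the 8 subunits was an SD of 0.49 log2 units in shCtrl and 0.64 in shPRRC2B, and the best and worst loaded subunits differed 2.39-fold and 3.81-fold. The SD was 2.50 and 2.81 among the 5 prefoldin subunits tested, 1.53 and 1.54 among 13 core subunits of the 20S proteasome, and 2.18 and 2.58 among all genes tested. Subunits with few counts, such as PSMA2 with 0.74 CPM in shPRRC2B total RNA, set much of these values. Over those with a mean of at least 10 CPM, a limit chosen after seeing the data, the SD was 0.75 and 0.99 for 4 prefoldin subunits and 0.40 and 0.61 for 11 subunits of the 20S proteasome, so the order of the CCT subunits and the proteasome turned. The difference in spread was not tested. PFDN6 and PSMB3 were at or near 0 in every library and were not tested. Their counts cannot tell an absent mRNA from reads that were not assigned to the gene.

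Neighbours in the order were compared by the log2 ratio of their counts within each library, which no scaling can change, with the polysome set against the total libraries of a line. The order was taken from the loading in these same libraries, so the direction of each difference was set in advance. The ratios describe the size of the steps, and the overlap among other pairs of genes was not counted. In shCtrl 2 of 7 neighbouring pairs had ratios that did not overlap between fractions, CCT3 over CCT6A (1.00 ± 0.08 in total and 1.52 ± 0.13 in polysome RNA) and CCT7 over CCT5 (0.56 ± 0.04 and 0.83 ± 0.14; log2, SD, n = 3). In shPRRC2B 3 of 7 did not overlap, CCT4 over TCP1 (-0.55 ± 0.04 and -0.21 ± 0.13), TCP1 over CCT8 (0.75 ± 0.10 and 1.29 ± 0.17) and CCT5 over CCT2 (0.35 ± 0.06 and 0.76 ± 0.20). The two-sided exact permutation test of 3 against 3 libraries cannot go below p = 0.1, which these pairs reached (adjusted p = 0.28 over 14 pairs), and the ratios of the other 9 pairs overlapped. With 3 libraries against 3, no pair of neighbours could pass this test.

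The second comparison asked what PRRC2B depletion did to the 8 mRNAs in each fraction. In total RNA all 8 estimates were above 0, and TCP1 (log2 0.53 ± 0.11, adjusted p = 0.00157) and CCT2 (0.59 ± 0.14, adjusted p = 0.00323) rose, by 44.5% and 50.1%. That is 2 of 8 called higher and 0 lower, where 14.9% of all genes tested were called higher and 14.1% lower. CCT5 (0.41, adjusted p = 0.0318) and CCT7 (0.36, adjusted p = 0.0327) fell short of the fold threshold, and CCT3, CCT4, CCT6A and CCT8 had 0.07 to 0.24 with adjusted p from 0.285 to 0.683. The shPRRC2B libraries lay wholly above the shCtrl libraries for TCP1, CCT2, CCT3, CCT5, CCT7 and CCT8, 6 of 8, as they did for 34.1% of all genes tested (28.8% lay wholly below). The median change of the 8 was 0.30, against 0.04 for all genes. TCP1 lay so near the fold threshold that leaving out any of the 6 polysome libraries brought it to 0.48 and ended the call. In RNA of a whole culture, a change in every cell and a change in some of the cells cannot be told apart.

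On polysomes the subunits parted. TCP1 rose 1.78-fold (log2 0.83 ± 0.11, adjusted p = 1.79e-05), whereas CCT6A (-0.73 ± 0.12, adjusted p = 0.000119), CCT8 (-0.75 ± 0.18, adjusted p = 0.00258) and CCT3 (-0.55 ± 0.18, adjusted p = 0.0191) fell. These are 1 of 8 called higher and 3 of 8 called lower, where 18.4% and 21.4% of all genes tested were. CCT4 (0.24), CCT5 (0.00), CCT7 (-0.14) and CCT2 (-0.16) did not pass the test, with adjusted p from 0.143 to 1. The libraries of the lines did not overlap for TCP1 and CCT4, both higher in shPRRC2B, and for CCT6A and CCT8, both lower, whereas 21.6% and 21.5% of all genes tested had no overlap in these directions. CCT3 had -0.46 and was not called without the shPRRC2B polysome library of replicate 1, and without this library in both lines CCT3 had -0.59 and CCT2, at -0.51, was called too.

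TE fell for 4 of the 8 subunits and rose for 0. At an unadjusted p under 0.05, edgeR and limma each had 5 lower and 0 higher, and DESeq2 had 6 lower and 1 higher. CCT8 had the largest change of the 8 (log2 -0.94 ± 0.25, adjusted p = 0.0105, 1.92-fold lower), followed by CCT6A (-0.80 ± 0.17, adjusted p = 0.00238, 1.74-fold lower), CCT3 (-0.80 ± 0.25, adjusted p = 0.0276, 1.74-fold lower) and CCT2 (-0.74 ± 0.19, adjusted p = 0.00911, 1.67-fold lower), all from the interaction of line and fraction in the edgeR fit. Among all genes tested 16.4% were called lower and 10.7% higher, or 39.4% higher among those called, a share that became 52.1% once each library was corrected for the lengths of the transcripts. The median TE change of the 8 was -0.62, against -0.03 for all genes. CCT7 had an adjusted p of 0.0427 with a log2 change of -0.495, just short of the fold threshold, and CCT5 had -0.41 (adjusted p = 0.141). TCP1 (0.30, adjusted p = 0.176) and CCT4 (0.05, adjusted p = 0.869) had values above 0 and did not pass the test.

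The changes in TE were made up differently. For CCT3, CCT6A and CCT8 the polysome level fell and the change in total RNA (0.07 to 0.24) did not pass the test. For CCT2 the total RNA rose and the polysome level (-0.16) did not pass the test. TCP1 had more RNA in both fractions. By the sides of the ring, a division described without a test, 3 of the 4 subunits of the side with weak ATP binding were called lower and 1 of the 4 of the ATP-tight side, CCT2.

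**Figure D3:**
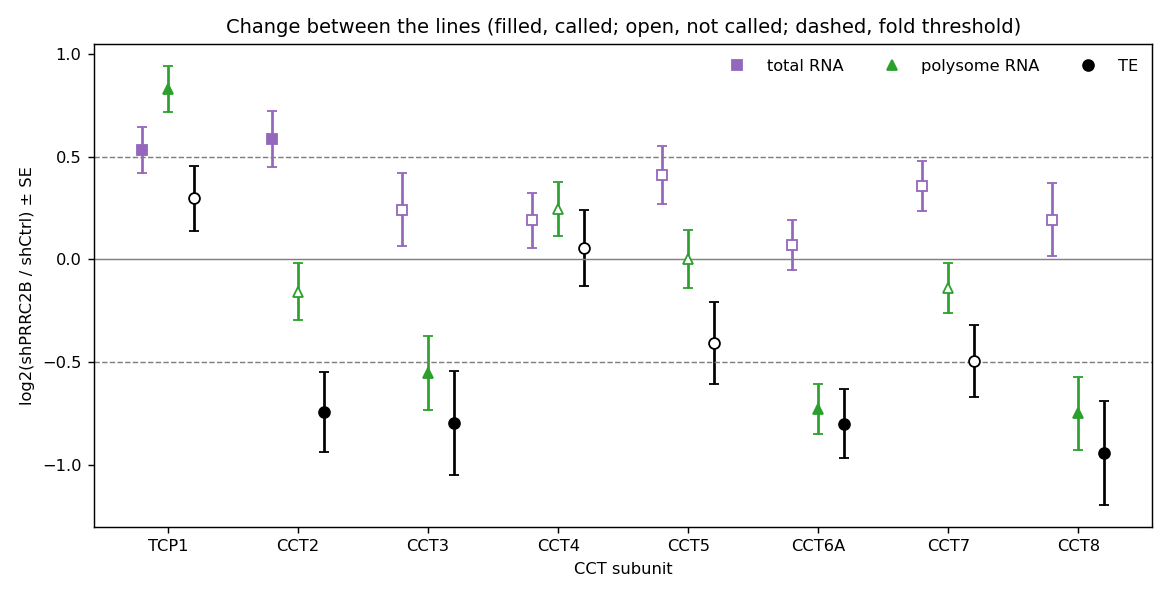
Change between the lines, log2(shPRRC2B/shCtrl) ± SE from the edgeR fit over 12 libraries (TMM scale), of each CCT subunit in total RNA (squares), polysome RNA (triangles) and TE (circles), with filled symbols for called changes. Total RNA estimates lie between 0.07 and 0.59, and the polysome estimates spread from -0.75 for CCT8 to 0.83 for TCP1.

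Leaving out the libraries that stood apart gave more calls, among all genes too. Without the polysome libraries of replicate 1 of both lines, 6 of the 8 subunits were called lower in TE, where 22.0% of all genes tested were in that fit, with CCT5 (-0.63, adjusted p = 0.00075) and CCT7 (-0.66, adjusted p = 0.000656) added, and CCT2 came to -1.04 and CCT8 to -1.11. CCT5 was also called without the shCtrl library alone (-0.62, adjusted p = 0.00208), and CCT7 was called without shCtrl polysome replicate 1 (-0.64) or 3 (-0.53) or shPRRC2B polysome replicate 1 (-0.57). The call of CCT3 was lost, at -0.77 to -0.82 and adjusted p from 0.0528 to 0.0595, when shCtrl total replicate 1, 2 or 3 or shPRRC2B total replicate 1 or 2 was left out. CCT2, CCT6A and CCT8 were called lower without each of the 12 libraries in turn, with values from -0.69 to -0.93, -0.77 to -0.92 and -0.82 to -1.21.

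**Figure D4:**
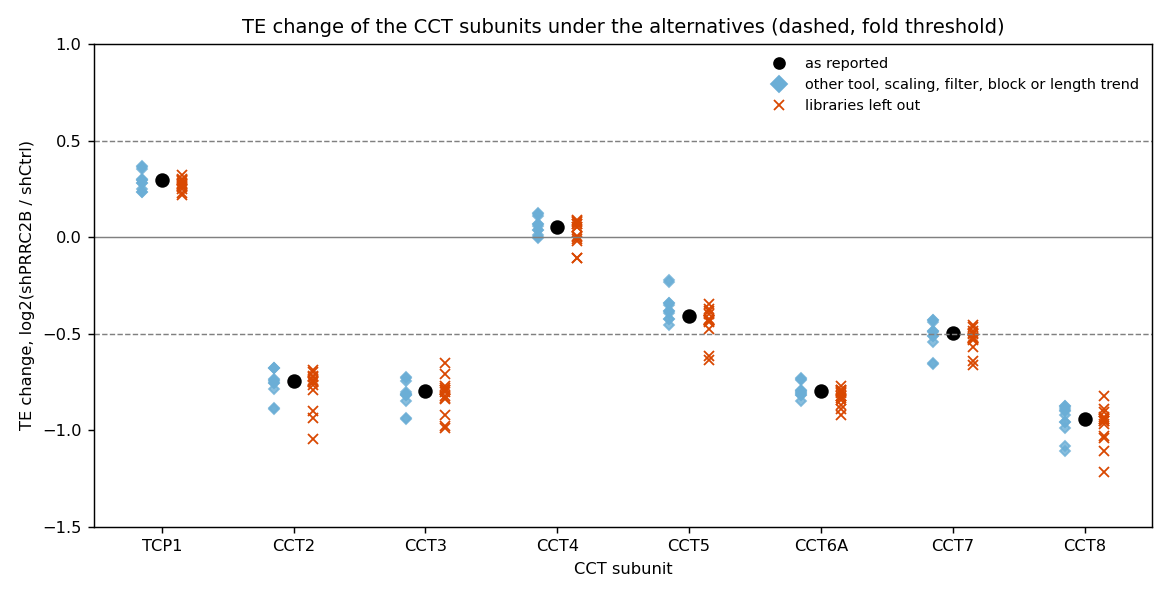
TE change, log2(shPRRC2B/shCtrl), of each CCT subunit as reported (black), under other tools, scalings, filters, blocks and the removal of the length trend (blue diamonds), and with libraries left out (orange crosses). CCT2, CCT3, CCT6A and CCT8 stay below -0.5 under each setting, TCP1 stays between 0.22 and 0.37, and CCT4 falls on both sides of 0.

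The proportions of the subunits on polysomes were then compared directly, on the scale of the complex. TCP1 gained TE relative to the mean of the 8 (log2 0.75 ± 0.20, adjusted p = 0.0117), and so did CCT4 (0.54 ± 0.18, adjusted p = 0.0354). These 2 of 8 were called higher and 0 lower, where 21.4% of all genes tested were called higher and 5.63% lower on this scale. Both the calls and the shares are measured against the 8, whose median TE change was -0.62 on the TMM scale. A fall of the other subunits therefore counts as a gain here. On the TMM scale TCP1 had 0.30 (edgeR adjusted p = 0.176) and CCT4 0.05 (adjusted p = 0.869), and neither was called. The lowest values belonged to CCT8 (-0.44 ± 0.21, adjusted p = 0.121), CCT6A (-0.33 ± 0.18, adjusted p = 0.179) and CCT3 (-0.32 ± 0.22, adjusted p = 0.306), none of which passed the test, and CCT2 (-0.25), CCT5 (0.08) and CCT7 (-0.02) did not pass it either. The call of CCT4 was lost, at 0.50 to 0.57 and adjusted p from 0.054 to 0.0964, without any of the 6 total libraries or without shCtrl polysome replicate 2 or shPRRC2B polysome replicate 3, and it was 0.51 (adjusted p = 0.00592) without both polysome libraries of replicate 1. CCT4 was also not called with the replicate number (0.54, adjusted p = 0.0524) or the culture (0.54, adjusted p = 0.0922) as a block. CCT8 was called lower, at -0.57 (adjusted p = 0.00615), without shCtrl polysome replicate 1, and not without those of both lines (-0.49). TCP1 was called higher without each library in turn, from 0.68 to 0.91.

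In total RNA no subunit was called against the mean of the complex, and the values ran from -0.25 (CCT6A) to 0.26 (CCT2), where 5.41% of all genes tested were called higher and 24.7% lower by the same edgeR test. At an unadjusted p under 0.05 edgeR also had 0 of the 8 and limma had 1, and the lowest adjusted p were 0.134 for CCT6A and 0.179 for CCT2. On polysomes TCP1 (0.96, adjusted p = 7.98e-05) was called above the complex and CCT6A (-0.58, adjusted p = 0.00168) and CCT8 (-0.57, adjusted p = 0.00555) below it, where 21.4% of all genes were called higher and 16.3% lower. The test of the difference between the fractions is the TE change on the same scale, called for TCP1 and CCT4.

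To compare the subunits with each other, CPM was divided by the length of the canonical transcript and given as a share of the 8, so that equal amounts would be 12.5% each. In total RNA of shCtrl the shares ran from 7.37% ± 0.24 (CCT5) to 22.6% ± 0.53 (CCT3), a 3.06-fold range, and on its polysomes from 4.54% ± 0.38 (CCT5) to 28.8% ± 1.39 (CCT3), a 6.34-fold range (SD, n = 3). In shPRRC2B the range was 2.95-fold in total RNA, from 7.22% ± 0.11 (CCT6A) to 21.3% ± 0.11 (CCT3), and 4.24-fold on polysomes, from 5.10% ± 0.46 (CCT5) to 21.7% ± 4.39 (CCT3). The range was wider on polysomes than in total RNA in both lines. Single shares depend on the length used. Per coding length CCT5 had 11.2% ± 0.36 in shCtrl total RNA, the lowest share there was 7.88% (CCT2), and the ranges were 2.60-fold and 5.57-fold in shCtrl and 2.21-fold and 4.56-fold in shPRRC2B. CCT2 was then the lowest on the polysomes of both lines, and TCP1 (21.4% ± 0.98) was the highest on shPRRC2B polysomes, before CCT3 (19.6% ± 4.07).

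TCP1 took 11.8% ± 0.27 of the 8 in shCtrl total RNA and 10.5% ± 1.95 on its polysomes, but 13.7% ± 0.30 in shPRRC2B total RNA and 20.3% ± 1.03 on its polysomes. CCT4 went from 10.1% ± 0.50 to 13.2% ± 0.25 between fractions in shCtrl and from 9.22% ± 0.38 to 17.5% ± 1.51 in shPRRC2B. CCT2 went the other way in both lines, from 8.78% ± 0.18 to 5.23% ± 0.10 and from 10.5% ± 0.27 to 5.27% ± 1.23. CCT8 had 15.8% ± 2.41 on shCtrl polysomes and 10.6% ± 0.74 on shPRRC2B polysomes.

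Single ratios are given for pairs chosen from the TE result, a subunit with a high TE change over one with a lower value. They illustrate that result and are no further test of it. Per transcript length there were 1.35 ± 0.02 TCP1 mRNAs for each CCT2 mRNA in shCtrl total RNA and 1.30 ± 0.01 in shPRRC2B total RNA, but 2.00 ± 0.34 on shCtrl polysomes and 3.96 ± 0.67 on shPRRC2B polysomes. The polysome libraries did not overlap, at 2.39, 1.82 and 1.79 against 3.19, 4.40 and 4.28. The ratio of TCP1 to CCT8 was 0.98, 0.55 and 0.54 on shCtrl polysomes and 2.19, 1.87 and 1.73 on shPRRC2B polysomes, and in total RNA it was 1.05 ± 0.01 and 1.33 ± 0.09. The shCtrl polysome library of replicate 1 was the high value of TCP1 against both partners. CCT4 over CCT2 was 2.52 ± 0.07 on shCtrl polysomes and 3.39 ± 0.57 on shPRRC2B polysomes. CCT4 over CCT5 was 2.93 ± 0.24 and 3.42 ± 0.21.

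**Figure D5:**
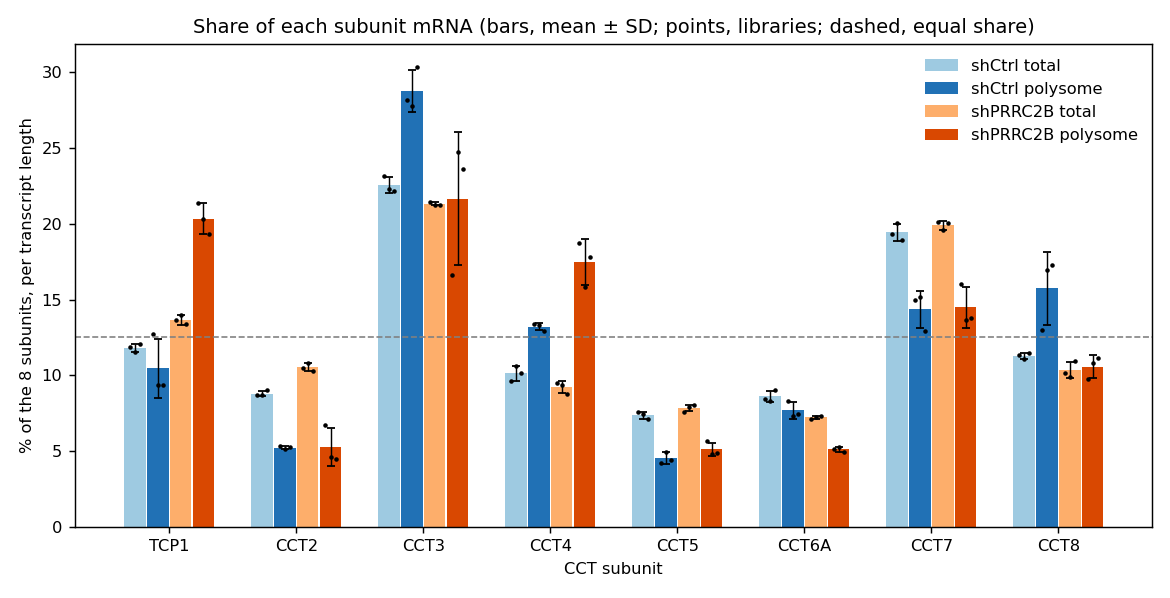
Share of each CCT subunit in the 8, in percent of the summed CPM per transcript length, in the 4 groups (bars, mean ± SD, n = 3; points, libraries; dashed line, the equal share of 12.5%). TCP1 and CCT4 reach 20.3% and 17.5% on shPRRC2B polysomes, and CCT3 is the largest share in each group per transcript length, though not per coding length on shPRRC2B polysomes, where TCP1 is.

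The level of the complex as a whole was taken as the sum of its mRNAs. The 8 mRNAs summed to 2398 ± 44.3 CPM in shCtrl total RNA and 3001 ± 87.3 CPM in shPRRC2B total RNA (SD, n = 3). On polysomes the sums were 3408 ± 573 and 3137 ± 224 CPM, which overlapped, with 2766, 3591 and 3868 CPM in shCtrl and 2884, 3309 and 3219 CPM in shPRRC2B.

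Among the other genes of the pathway, none of the 5 tested prefoldin subunits, 3 phosducin-like cofactors (PDCL, PDCL3 and TXNDC9) and 4 chaperonin-like paralogs (CCT6B, MKKS, BBS10 and BBS12) was called in TE by edgeR, DESeq2 or limma, with 1 gene of each list at an unadjusted edgeR p under 0.05. The median was 0.06 for prefoldin, -0.54 for the phosducin-like genes and -0.35 for the paralogs. Of 10 actin and tubulin clients tested, 3 fell and 0 rose, where 16.4% of all genes tested were called lower in TE and 10.7% higher. Those that fell were ACTB (log2 -1.46 ± 0.21, adjusted p = 0.000112) and ACTG1 (-1.14 ± 0.35, adjusted p = 0.0207), the cytoplasmic actins, and TUBA1A (-0.93 ± 0.19, adjusted p = 0.00194), an alpha-tubulin. ACTB (-0.97) and ACTG1 (-0.67) were called lower on polysomes. TUBA1A was called higher in total RNA (0.93) and had -0.01 on polysomes, not called. In total RNA 5 of the 10 clients were called higher and 0 lower, where 14.9% and 14.1% of all genes tested were. TUBB, a beta-tubulin, was at or near 0 in every library and was not tested. Such counts cannot tell an absent mRNA from reads that were not assigned to the gene. Of 8 other clients 1 was called, HDAC3, a histone deacetylase, which rose (0.57 ± 0.18, adjusted p = 0.0238), and of 13 proteasome core subunits PSMA7 rose and PSMA3 fell.

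The mitochondrial chaperonin, which has 1 main subunit and 1 lid subunit, moved apart in the same comparison. HSPD1, the barrel subunit, fell in TE (-0.89 ± 0.22, adjusted p = 0.00702), and HSPE1, its lid, rose (1.28 ± 0.32, adjusted p = 0.00709). HSPE1 was measured at 444, 263 and 190 CPM on shCtrl polysomes and 454, 305 and 373 CPM on shPRRC2B polysomes, which overlapped, while its total RNA was 46.1 ± 2.86 and 24.0 ± 3.20 CPM. The barrel subunit of this chaperonin thus moved in the direction of CCT2, CCT3, CCT6A and CCT8.

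The genes whose levels over the 12 libraries were most like the mean of the 8 subunits, among 10043 genes whose mean reached 10 CPM, were DNAJB12 (Pearson r = 0.94), HADHB (0.93), PSMC4 (0.91), HTRA1 (0.90) and AHCY (0.90). The 12 libraries fall into 4 groups and share their depth and scaling, so these values describe likeness and carry no test.

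Reads shared with other loci limit some of these values. The counting used no strand information, and the exons of TCP1 share 454 nt (9.3% of its exonic bases) with ACAT2 on the opposite strand. They also share 140 nt (2.87%) with SNORA29 and 12 nt with SNORA20, both on the same strand. The exons of CCT4 share 275 and 181 nt with a pair of antisense lncRNAs. Those of CCT5 share 30.8% with 1 antisense lncRNA and those of CCT8 share 2.54% with another. The exons of CCT2, CCT3, CCT6A and CCT7 share no bases with the exons of another gene. Pairs that mapped to several places were not counted, and 14 pseudogenes of the subunits have entries of their own, of which CCT6P1 held 3.52% and CCT6P3 1.27% of the CCT6A count and CCT8P1 0.776% of the CCT8 count, the other 11 each less than 0.1% of theirs. CCT6P1 fell in total RNA (log2 -1.11 ± 0.19, adjusted p = 0.000319) where CCT6A had 0.07, so how much of CCT6A depends on the split of near-identical reads is uncertain and was not tested.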

How the data were processed

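Total RNA and RNA of pooled polysome fractions of 2 HEK293T lines were sequenced as poly(A)-enriched paired-end libraries. The authors deposited 1 table of raw counts, not normalized, in which each value is the number of read pairs assigned to a gene name in a library. The submitters' processing notes name bcl2fastq 2.19.0, Trimmomatic 0.36, HISAT2 2.1.0, featureCounts of Subread 2.0.1 and GRCh38, and the methods name GENCODE 38 and another release of HISAT2. Pairs mapping to several places or genes were not counted and no strand option is given, and genes that share a name are 1 entry. The table held 59385 names, 36618 of them with any count, 0 entries without a gene name and 0 value columns of no sample. Groups were read from the labels, and the time after induction from the methods.

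Tests were run on these counts with edgeR 4.0.16 (R 4.3.3), after filterByExpr by the 4 groups with a minimum count of 10, TMM over 12 libraries, and glmQLFit and glmQLFTest without a block. Polysome loading, the changes between lines and the TE change (interaction) were contrasts of 1 fit, and the Benjamini-Hochberg adjustment took in the whole set of 18166 genes. Calls needed an adjusted p under 0.05 and a log2 value beyond 0.5. The fit was repeated with libraries scaled by the geometric mean of the 8 subunits. SEs came from the F statistic, and CPM are TMM-scaled. Alternatives used DESeq2 1.42.0, limma 3.58.1 on log2(CPM + 1), other scalings and filters, blocks, removal of the length trend (lowess, span 0.3; lengths of GENCODE 44 for 86.1% of the genes tested) and each library left out. The scripts were tested on simulated counts. Same-numbered libraries did not deviate together: 0 of 18 pairs had a correlation over 0.1 (from -0.107 to 0.0982), so the numbers were not taken as pairing.

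The subunits and the other gene lists were chosen by symbol with earlier results of these data known. All 8 subunits are named, as are genes of the pathway lists called in TE and the 5 genes most like the mean of the 8. Binding site positions were those of the study's PAR-CLIP, and no value of that experiment was used. Errors are SDs over replicates or SEs of the fit, and no share of a single library is given. 1 of the marker genes of other cell types is not reported here.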

Additional observations from a re-analysis of the deposited data

Results flagged for a closer look

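Polysome loading was compared between shPRRC2B and shCtrl by the test of the interaction of line and fraction (edgeR's quasi-likelihood test). It was called for 4 of the 8 subunits on the TMM scale and for 2 others on the scale of the 8 subunits. No subunit was called on both scales, which place the zero of the same contrast differently. Of all genes tested, 16.4% were called lower and 10.7% higher on the TMM scale, and 5.63% and 21.4% on the other. On the TMM scale of all genes the difference was -0.94 for CCT8, -0.80 for CCT6A, -0.80 for CCT3 and -0.74 for CCT2 (log2). On the scale of the 8 subunits it was 0.75 for TCP1 and 0.54 for CCT4, which was not called with the replicate number as a block (adjusted p = 0.0524) or the culture (0.0922). In CCT8, CCT3 and CCT6A the polysome library of replicate 1 was the lowest of its group in both lines. Without this library of both lines CCT8 had -1.11 and CCT3 had -0.78. CCT6A had -0.92 without the shCtrl polysome library of replicate 1 alone.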

How the results depend on the processing

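The count of subunits called lower in TE stayed at 3 to 6 with single libraries left out and was 4 or 5 under other tools, scalings, filters, blocks and the removed length trend. Values of single subunits kept direction and side of the threshold in 464 of 544 cases under such alternatives and in 759 of 832 with libraries left out. The fit with the replicate number as a block changed 1 call of the subunits: TE relative to the complex was called for 1 of 8 (TCP1) in place of 2, with CCT4 at 0.54 (adjusted p = 0.0524), as it was with the culture block (0.54, adjusted p = 0.0922) and with the sum of the 8 as the scale (1 called). The culture block could not be fitted to the changes in total and polysome RNA. Single libraries left out gave 1 to 3 called there, 1 to 2 in total RNA, 3 in shCtrl loading, 4 to 5 in shPRRC2B loading, and 2 to 4 and 3 to 5 neighbours without overlap in shCtrl and shPRRC2B, the highest both without polysome replicate 1. In total RNA 4 were called with no minimum log2 change, and 1 by total counts, TMM within fractions, all genes with at least 1 count, the removed length trend with or without the replicate block, and without polysome replicate 1 of both lines. Loading in shCtrl had 5 called with no minimum log2 change (5 higher) and 5 (0 higher and 5 lower) by total counts and by TMM within fractions; relative to the complex, shPRRC2B had 6 with no minimum log2 change and 5 with the sum as the scale.

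Reversals under total counts and TMM within fractions were TCP1 -0.68 and -0.68, CCT3 -0.12 and -0.12, CCT4 -0.092 and -0.096, CCT6A -0.65 and -0.65 and CCT7 -0.92 and -0.92 for shCtrl loading, and TCP1 -0.32 and -0.32, CCT3 -0.86 and -0.85 and CCT8 -0.86 and -0.85 for shPRRC2B loading. Total counts also gave CCT6A -0.0052 in total RNA and CCT5 -0.015 on polysomes. With the length trend removed, without and with the replicate block, shCtrl loading was -0.047 and -0.047 for TCP1, 0.20 and 0.18 for CCT5 and -0.76 and -0.76 for CCT7, shPRRC2B loading was -0.76 and -0.79 for CCT3 and -0.91 and -0.92 for CCT8, and the TE change of CCT4 was -0.0032 and -0.0011. CCT5 on polysomes was -0.010 by DESeq2 and by its size factors. With all genes of at least 1 count it was -0.082, with shCtrl loading of CCT7 -0.048 and shPRRC2B loading of CCT3 -0.093 and CCT8 -0.087. Leaving out single libraries, or polysome replicate 1 of both lines, turned the sign of uncalled values: TE of CCT4 (-0.11 to 0.087) and, relative to the complex, CCT7 (-0.077 to 0.022); CCT5 on polysomes (-0.27 to 0.016); loading in shCtrl of CCT7 (-0.027 to 0.16) and, relative to the complex, TCP1 (-0.20 to 0.032) and CCT6A (-0.083 to 0.0067); and loading in shPRRC2B of CCT3 (-0.11 to 0.22) and CCT8 (-0.026 to 0.13). Without polysome replicate 1 of both lines CCT4 had a TE change of -0.11, CCT5 -0.27 on polysomes and -0.022 in TE relative to the complex (0.15 as the highest value with single libraries left out); this setting was chosen after seeing the data. The cause of these moves was not tested. Per coding length in place of transcript length, 28 of 32 shares of the subunits moved by more than the SD between replicates. Removing the length trend also moved the SD of shPRRC2B loading among the subunits from 0.64 to 0.82, and 12 libraries of 3 per group limit the tests.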
